A study of Danio rerio with 73 samples.

Results

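The 181 CpGs described here lie in 7 stretches of zebrafish DNA that were nearly unmethylated in mature gonads. CpGs, where cytosine precedes guanine, are the usual sites of DNA methylation in vertebrates. The members were taken by position: every CpG with at least 10 reads in at least 50% of the fish, from each of 7 given starts to 450 bp beyond it on the GRCz10 build. They made up 181 of the 324 CpGs with that depth, and 7 of the 20 amplicons (the stretches of DNA copied by PCR) in the series. The amplicons were chosen by their measured mean level over all fish, which was under 5%, so the low level itself is a description and not a finding. Another amplicon under 5% lies outside the rule.

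The fish were laboratory zebrafish of the AB strain, 90 days old, reared at 36 °C or at 28 °C while the gonads formed, and DNA methylation was read by multiplex bisulfite sequencing of promoter regions of 18 genes. Libraries labelled testis came from 12 fish with title prefix 128 and 8 with prefix 204 reared at 36 °C, and from 13 and 10 reared at 28 °C. Libraries labelled ovary came from 12 fish reared at 36 °C, each with prefix 204, and from 9 fish of each prefix reared at 28 °C. The labels define neither prefix, and tank and family are not stated in them, so every p-value here measures fish-to-fish spread in this collection. Whole gonads hold several cell types, and a level in 1 cell type cannot be told apart from the share of that type.

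In vertebrate genomes most CpGs are methylated, while stretches dense in CpGs near the starts of genes, called CpG islands, usually stay free of methylation. Methylation of such a stretch is known for going with a silent promoter. Bisulfite treatment converts cytosine without a methyl group, so that it is sequenced as T, whereas methylated cytosine is still sequenced as C. A cytosine that escapes conversion is therefore counted as methylated, and where nearly all cytosines are unmethylated that error sets a floor which cannot be told apart from true methylation in these counts.

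Depth and labels were first looked at over the whole series. Per library the number of CpG calls ran between 711295 and 12565602, apart from 1404 in fish 14 of the 36 °C ovaries. The 7 amplicons took 55.8% of all calls, or 241278159 calls, and 1 of the amplicons took 61.0% of these. The amplicons outside this set with a mean level of 5% or more gave a scale for placing fish, with the 28 °C ovaries of prefix 128 at 0 and the 36 °C testes of prefix 128 at 100. On it 14 of 43 libraries labelled testis lay below 50, as did 29 of 29 placed ovaries, and no fish lay between 41.8 and 67.1. Those 14 were all 10 of the 28 °C testes with prefix 204, fish 1 plus fish 17 among the 36 °C testes of prefix 204, as well as fish 20 plus fish 22 among the 28 °C testes of prefix 128. Below 50 is called the ovary range here, although the highest placed ovary was at 21.3. Fish 7 and fish 2 of the 28 °C testes with prefix 204 lay above all placed ovaries, at 41.8 (from 5 amplicons) and 24.5. Amplicon comparisons that include the 14 libraries are also given without them where that changes a call. Counts of single CpGs without them are given only for tissue at 28 °C and for temperature in testis. Of the up to 10 largest CpG calls of each comparison so rerun, 18 held, 12 no longer passed and 2 reversed in sign. Prefixes in the 28 °C testes could not be rerun this way, and the interactions were not.

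Each amplicon is called here by its chromosome number, with 5a and 5b for the pair on chromosome 5. Amplicon 1 was chr1:6886521-6886862 on the minus strand with 20 CpGs. Amplicon 3 was chr3:54352466-54352868 on the minus strand with 26 CpGs. Amplicon 5a was chr5:23697173-23697500 on the minus strand with 26 CpGs. Amplicon 5b was chr5:34961306-34961660 on the plus strand with 34 CpGs. Amplicon 7 was chr7:22538693-22539035 on the plus strand with 31 CpGs. Amplicon 15 was chr15:7060346-7060685 on the plus strand with 26 CpGs. Amplicon 19 was chr19:1356464-1356767 on the minus strand with 18 CpGs. These bounds are the first and last member CpG, and no gene annotation or sequence of this build was used here.

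The 7 amplicons were denser in CpGs than most others of the panel. They held 5.85 to 9.58 CpGs per 100 bp with a median of 7.65, while the other 13 held 1.20 to 7.48 with a median of 3.90. Neighbouring member CpGs were 2 to 82 bp apart. The base after the CpG was C at 53 member CpGs, A at 44, T at 43 and G at 41. Their mean levels over fish had medians of 0.638%, 0.581%, 0.581% and 0.513% in that order, so the 4 contexts differed little.

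Background levels were far below 5% everywhere. Averaged over its CpGs, amplicon 15 stood at 0.985% ± 0.967 (SD, n = 71 fish), amplicon 1 at 0.822% ± 0.620 (n = 69) and amplicon 5b at 0.664% ± 1.21 (n = 73). Amplicon 5a stood at 0.638% ± 0.234 (n = 71), amplicon 7 at 0.466% ± 0.477 (n = 70), amplicon 3 at 0.435% ± 0.184 (n = 69) and amplicon 19 at 0.414% ± 0.134 (n = 63). The order among neighbours is within the spread between fish. The next amplicon upward in the series, outside this set, stood at 4.63%, and the one after that at 17.1%.

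Most single values were lower still. Of the 12651 levels of 1 CpG in 1 fish, 86.0% were under 1% and the median was 0.350%. No methylated read was seen in 838 of them. The values at 0 were the shallow ones, with a median of 226 reads against 5059 over all values. Levels over 5% numbered 116, and levels over 10% numbered 51 in 14 fish. For comparison, mitochondrial CpGs gave 9 methylated of 155 calls, too few to set a conversion rate.

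Counting error at 1 CpG was of the size of the level in the shallower amplicons. At the median depth of amplicon 5a, 1177 reads, a level of 5 methylated reads has a 95% Wilson interval of 0.182% to 0.991%. At the median depth of amplicon 5b, 47339 reads, 172 methylated reads give 0.313% to 0.422%. These intervals cover counting error only, since PCR reads without molecular identifiers are not independent molecules.

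**Figure D1:**
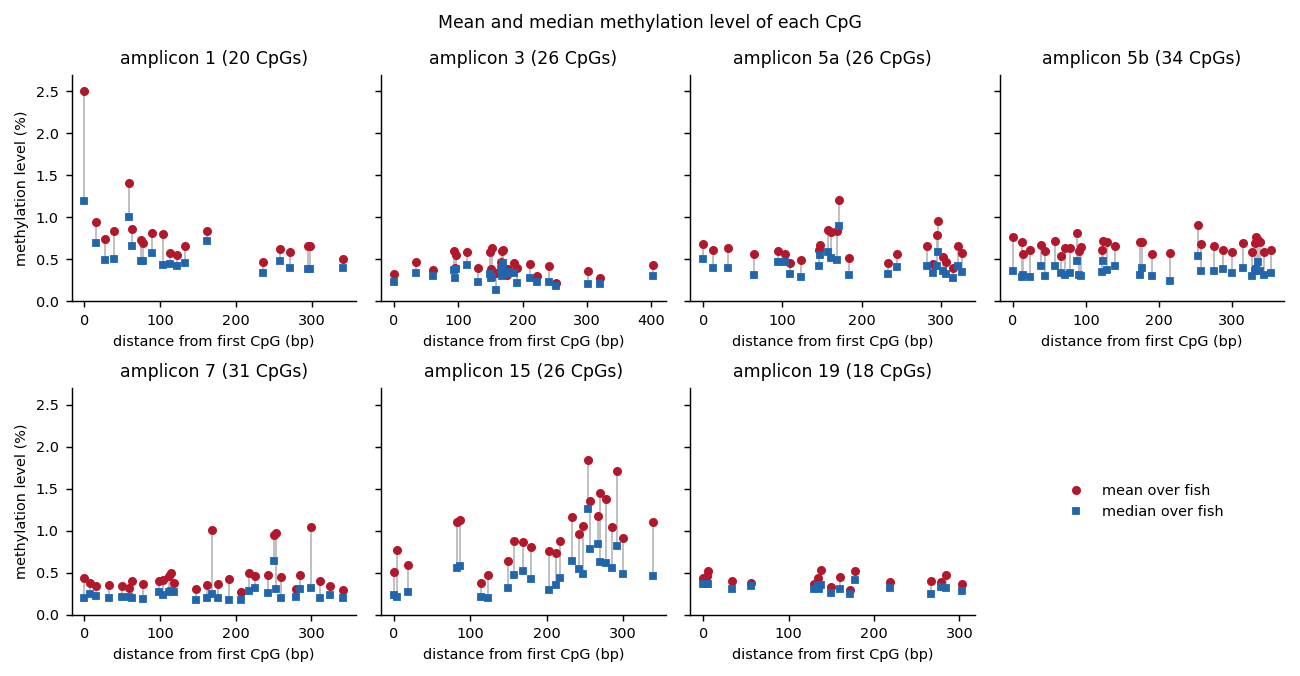
Methylation level of each of the 181 CpGs, as mean (red) and median (blue) over fish in percent, against the distance from the first CpG of its amplicon in bp. The first CpG of amplicon 1, at 2.50% mean and 1.19% median, is the highest of its amplicon. It has the highest mean of the 181, while the highest median of amplicon 15 is larger, at 1.26%. The CpGs after about the middle of amplicon 15 lie above those before it.

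The CpGs at the ends of the amplicons were not higher than the inner ones as a rule, with 1 exception. The first CpG of amplicon 1, at position 6886521, had a mean level of 2.50% and a median of 1.19% (n = 69). It was the only member at 3 or more times the median CpG of its amplicon and at least 1%. It lay above the median of the inner CpGs in 57 of 69 fish and below it in 8. Its mean rested in part on fish 9 of the 28 °C ovaries with prefix 128, at 71.4%, and was 1.49% without that fish. The median CpG of the amplicon had a mean of 0.714%, so 1.49% falls short of 3 times that level. Standing out by this rule therefore depended on 1 fish. The last CpG of amplicon 1 had 0.501%, second from the lowest of 20.

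At 9 of the other 12 ends the edge CpG was lower than the median of the inner CpGs in more fish than it was higher, at 2 it was higher in more fish, and at 1 the numbers were equal. The first CpG of amplicon 15 had a mean of 0.512% and lay below the inner median in 52 of 71 fish, and the last had 1.10% and lay above it in 34 and below it in 34. The first CpG of amplicon 3 had 0.325% and was lower in 48 of 69 fish, and the last had 0.430% and was lower in 38. In amplicon 5a the first CpG had 0.683% and was higher in 38 of 71 fish, while the last had 0.575% and was lower in 43. Amplicon 5b gave 0.760% at its first CpG and 0.613% at its last, which were lower than the inner median in 37 and 45 of 73 fish. In amplicon 7 the values were 0.434% and 0.296%, lower in 42 and 44 of 70 fish, and in amplicon 19 they were 0.435%, higher in 37 of 63, and 0.358%, lower in 37. The depth at the ends was like that of the inner CpGs, for example 1325 against 1316 reads for the first CpG of amplicon 1.

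The first CpG of amplicon 1 had lower medians with prefix 128 than with prefix 204 in each pair of groups, and 1 of the 3 pairs passed the test. Its median was 0.543% in the 36 °C testes with prefix 128 against 1.47% with prefix 204, and 1.03% in the 28 °C testes with prefix 128 against 2.07% with prefix 204. In the 28 °C ovaries it was 0.679% with prefix 128 against 1.64% with prefix 204, and the 36 °C ovaries had 1.96%. The ranges overlapped in each pair, such as 0.240% to 1.52% against 0.922% to 3.57% in the 36 °C testes. In the 28 °C ovaries the means ran the other way, 10.9% ± 26.7 with prefix 128 (SD, n = 7) and 1.69% ± 1.22 with prefix 204 (SD, n = 9), fish 9 of prefix 128 being at 71.4%. The pair of 36 °C testes passed the test, with a difference of -1.07 points (SE 0.424, exact permutation test, Benjamini-Hochberg adjusted p = 0.0209).

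Levels also differed along some amplicons. In amplicon 15 the last 13 CpGs had a median level over fish of 0.552% and the first 13 had 0.321%, the last being higher in 58 of 71 fish. Amplicon 1 ran the other way, with 0.390% over its last 10 CpGs and 0.651% over its first 10, lower in 58 of 69 fish. In amplicon 3 the last 13 were lower in 50 of 69 fish, in amplicon 19 the last 9 in 46 of 63, and in amplicon 5a the last 13 in 45 of 71. In amplicon 7 the last 15 were higher in 48 of 70. In amplicon 5b the last 17 were higher in 38 and lower in 34 of 73 fish, so no slope stood out. These counts were taken after the profiles had been seen and carry no test.

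The highest CpG of each remaining amplicon had a mean between 1.33 and 2.59 times that of the median CpG of its amplicon. It was position 7060601 in amplicon 15 with a mean of 1.85% and a median of 1.26%, and position 23697345 in amplicon 5a with 1.20% and 0.899%. Amplicon 5b had its highest mean at position 34961560, 0.911% with a median of 0.535%. In amplicon 7 it was position 22538993, with a mean of 1.04%, or 0.439% without 1 fish. Position 54352619 of amplicon 3 had 0.638% and position 1356602 of amplicon 19 had 0.525%. In amplicons 3, 7 and 19 a different CpG had the highest median, 0.451% at 54352636, 0.643% at 22538943 and 0.407% at 1356642. These 3 positions were picked out after their values were seen.

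**Figure D2:**
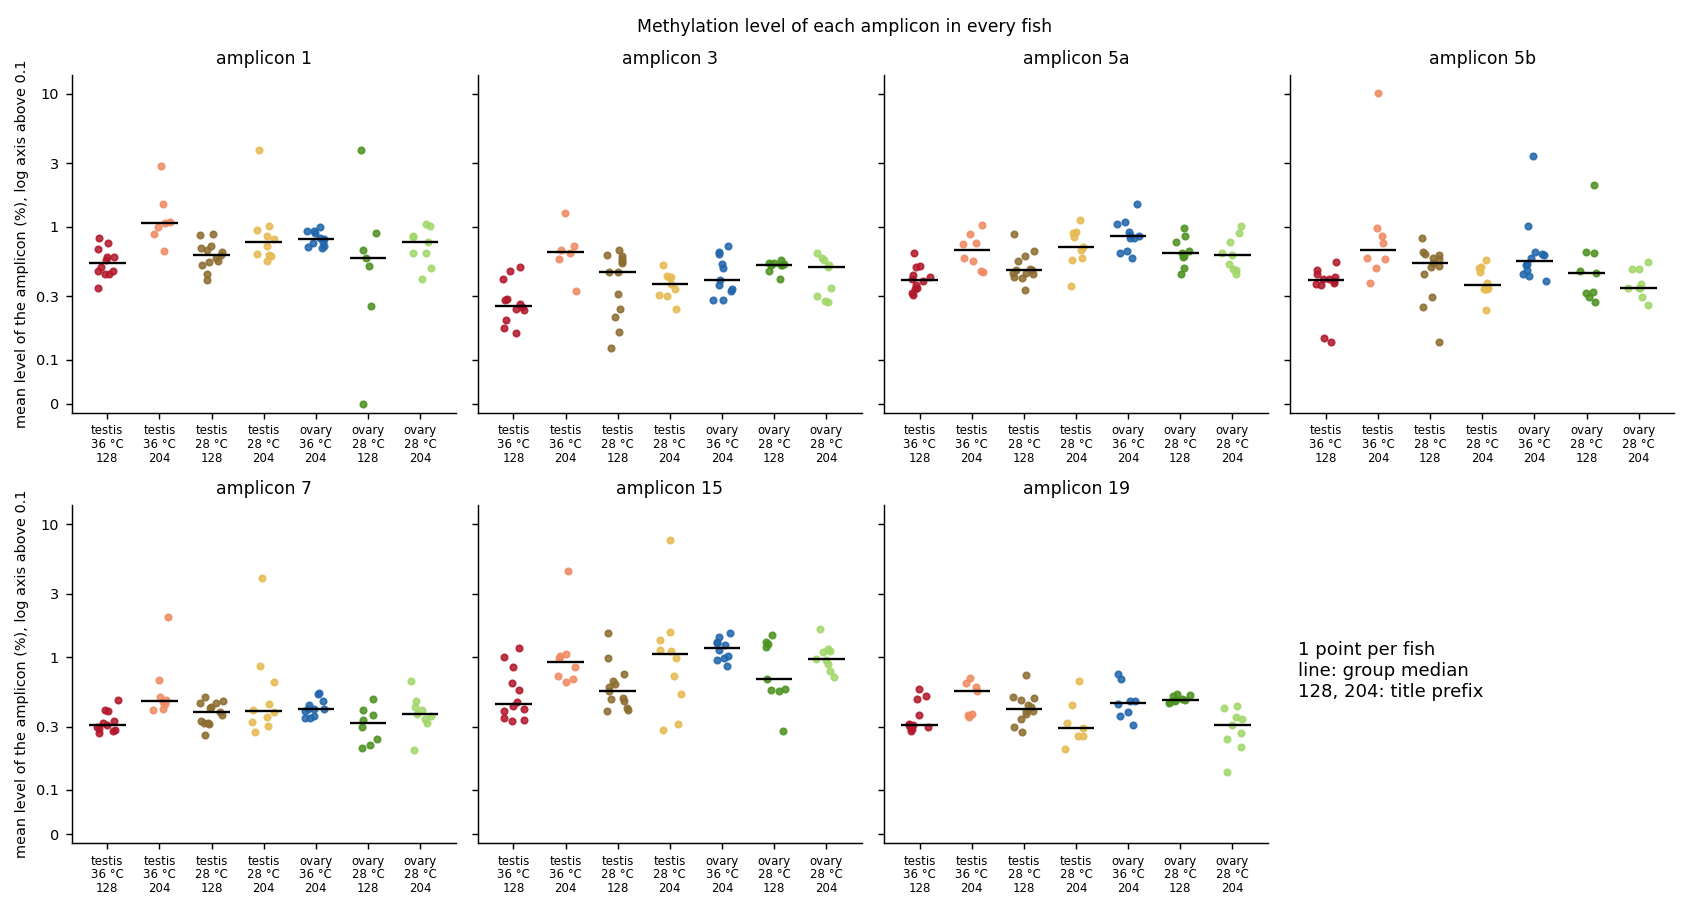
Mean methylation level of each amplicon in every fish, in percent on an axis that is logarithmic above 0.1, for the 7 groups of tissue, rearing temperature and title prefix. Points are fish and lines are group medians; nearly all fish lie between 0.1% and 2%, and fish 11 of the 36 °C testes with prefix 204 reaches 10.2% at amplicon 5b.

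A few fish stood far above their groups, and the shape of the rise along the amplicon differed between them. Fish 11 of the 36 °C testes with prefix 204 was raised at every amplicon where it had a level. It stood at 10.2% at amplicon 5b, 4.42% at 15, 2.88% at 1, 2.0% at 7, 1.28% at 3 and 1.03% at 5a. The next highest fish of its group stood at 0.987%, 1.06%, 1.48%, 0.675%, 0.712% and 0.877% in the same order. Among all fish it was within the highest 5 in 6 of 6 amplicons. At amplicon 5b all 34 CpGs were raised, between 8.79% and 12.7% with a median depth of 104187 reads. On the scale from ovary to testis it was not among the 14 libraries in the ovary range.

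Fish 7 of the 28 °C testes with prefix 204 showed another shape. At amplicon 15, where it stood at 7.56%, 19 of 26 CpGs lay between 9.84% and 10.7% and the other 7 between 0.166% and 0.964%. The 7 low CpGs formed 2 runs, with high CpGs before, between and after them. At amplicon 7, where it stood at 3.94%, 3 CpGs at positions 22538862, 22538946 and 22538993 had 42.1%, 32.5% and 42.3%. The other 28 CpGs of that amplicon were at most 0.643%, with a median of 0.149%. The 3 high CpGs had 13026 to 13036 reads each, and the 95% Wilson interval of the last was 41.5% to 43.2% (counting error only). The highest other fish of the group had 0.473% there.

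Flat and isolated rises were both seen in other fish. Fish 14 of the 28 °C ovaries with prefix 128 stood at 2.07% at amplicon 5b, where the middle 50% of its 34 CpGs fell between 1.89% and 1.96% (median depth 81538 reads). Fish 2 of the 28 °C testes with prefix 204 stood at 3.78% at amplicon 1, with 19 of 20 CpGs between 2.56% and 8.47% and the last CpG at 0.235%. By contrast, fish 9 of the 28 °C ovaries with prefix 128 reached 3.77% at the same amplicon through 1 CpG, position 6886521, with 300 of 420 reads methylated (71.4%, Wilson 66.9% to 75.5%). Its other 19 CpGs were at most 1.19%. Fish 14 of the 36 °C ovaries had a level at amplicon 5b only, 3.40% from 27 reads per CpG, where 1 methylated read already gives 3.70%.

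Values over 10% were gathered in few libraries. Fish 11 gave 20 of the 51 at amplicon 5b and fish 7 gave 17 at amplicons 7 and 15. Of the 16 pairs of a fish and an amplicon with such a value, 12 had it at a single CpG. An example is position 6886624 in fish 2 of the 36 °C testes with prefix 204, at 15.8% with 856 of 5417 reads, where the other CpGs of the amplicon were at most 1.24%. Prefix 204 held 48 of the 51 values and prefix 128 held 3. The single CpGs named for these fish were picked out after their values were seen. In all, 11 of the 51 rested on fewer than 1000 reads.

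The median over single values was between 0.259% and 0.594% in each group. The median was 0.326% in the 36 °C testes with prefix 128, 0.594% in those with prefix 204, 0.40% in the 28 °C testes with prefix 128 and 0.278% in those with prefix 204. It was 0.381% in the 36 °C ovaries, and 0.302% and 0.259% in the 28 °C ovaries with prefix 128 and 204. The share of values at 0 varied more, from 2.54% in the 36 °C testes with prefix 128 to 10.9% in the 28 °C testes with that prefix.

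After rearing at 36 °C, testes and ovaries were compared within prefix 204. Amplicons 1, 3 and 7 were higher in testis, 3 of 7, where 73.7% of all 19 amplicons tested in the series passed, 68.4% as higher and 5.26% as lower. Amplicon 1 had a lowest, median and highest level of 0.654%, 1.06% and 2.88% in testis (n = 7), against 0.689%, 0.815% and 0.996% in ovary (n = 11). The ranges overlapped, with 6 of 7 testis fish above the mean of ovary. The difference was 0.470 points (SE 0.284, exact permutation test, adjusted p = 0.0151).

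The other 2 calls were smaller. Amplicon 3 had 0.327%, 0.651% and 1.28% in testis (n = 6), against 0.281%, 0.397% and 0.715% in ovary (n = 11), a difference of 0.246 points (SE 0.137, exact permutation test, adjusted p = 0.0449). Amplicon 7 had 0.399%, 0.469% and 2.0% in testis (n = 8), against 0.347%, 0.407% and 0.534% in ovary (n = 11), a difference of 0.249 points (SE 0.194, exact permutation test, adjusted p = 0.0446). Without testis fish 11 the difference at amplicon 1 was 0.204 points and passed (exact permutation test, adjusted p = 0.0410), while those at amplicons 3 and 7 were 0.130 and 0.0590 points and did not. Without it, amplicons 15 and 5a were lower in testis, by -0.319 and -0.253 points (exact permutation test, adjusted p = 0.0114 and 0.0402). With that fish the difference at amplicon 15 was 0.127 points. Amplicon 5b passed neither with nor without it, and its difference changed sign, from 1.05 to -0.146 points. The call at amplicon 3 was lost for 13 of the fish that could be left out singly, and that at amplicon 7 for 10. Without the libraries in the ovary range, amplicons 1 and 7 differed by 0.570 and 0.339 points and passed, while amplicon 3 differed by 0.253 points and did not (exact permutation test, adjusted p = 0.0665). With mean ranks in place of means, 0 of 7 passed.

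At single CpGs, 11 of 181 were higher in testis at 36 °C and 0 lower, where 34.2% of all 319 CpGs passed, 27.0% as higher and 7.21% as lower. An unadjusted p below 0.05 was found at 19 of the 181, and at 38.9% of all 319. Of the 11, 5 lay in amplicon 7, 3 in amplicon 3 and 1 each in amplicons 1, 5a and 19. The last CpG of amplicon 7, position 22539035, had 0.583% ± 0.427 in testis (SD, n = 8) and 0.153% ± 0.0503 in ovary (SD, n = 11; exact permutation test, adjusted p = 0.00301). Position 54352768 of amplicon 3 had 1.43% ± 1.42 (n = 6) and 0.376% ± 0.230 (n = 11), a difference of 1.05 points, or 0.492 points without testis fish 19. Position 6886816 of amplicon 1 differed by 0.737 points (SE 0.310, exact permutation test, adjusted p = 0.0188), or by 0.486 points without testis fish 11. The median difference over the 181 CpGs was 0.234 points, and over all 319 CpGs 0.412 points. Without fish 11 of the testes, 8 CpGs passed.

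At 28 °C, testes and ovaries were compared within both prefixes. At the level of amplicons 0 of 7 passed, with 0 also at an unadjusted p below 0.05, where 60% of all 20 amplicons passed. The differences ran from -0.0791 points at amplicon 3 to 0.230 points at amplicon 7. Without the libraries labelled testis in the ovary range, only prefix 128 entered, less testis fish 20 and 22. Amplicon 5a was then lower in testis by -0.200 points (permutation test, adjusted p = 0.00293). Within all of prefix 128, nearly the same fish, it was lower by -0.157 points (exact permutation test, adjusted p = 0.0463). Within prefix 204 it differed by 0.0854 points (exact permutation test, adjusted p = 0.693).

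Single CpGs higher in testis at 28 °C numbered 6 of 181, and 0 were lower, where 31.8% of all 324 CpGs passed, 24.1% as higher and 7.72% as lower. Amplicon 7 held 3, amplicon 1 held 2 and amplicon 5a held 1. An unadjusted p below 0.05 was found at 14 of the 181, and at 36.7% of all 324. Position 23697357 of amplicon 5a had 0.653% ± 0.658 in testis (SD, n = 22) and 0.165% ± 0.194 in ovary (SD, n = 18), a difference of 0.508 points (SE 0.153, permutation test, adjusted p = 0.00864). Position 6886583 of amplicon 1 had 1.09% ± 0.976 (n = 23) and 0.457% ± 0.494 (n = 16). Position 22538840 of amplicon 7 had 0.455% ± 0.814 (n = 23) and 0.0937% ± 0.0516 (n = 17), so the spread in testis exceeded the difference of 0.377 points. Without fish 15 of the testes with prefix 204 that difference was 0.195 points. Within prefix 204 alone 0 CpGs passed, and without the libraries in the ovary range 13 passed. Whether those 13 were higher or lower in testis is not given here, nor is the share of all CpGs in either setting. The 13 therefore cannot be read as further CpGs higher in testis. Among the member amplicons, only 5a passed without those libraries, and it was lower in testis.

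Rearing at 36 °C against 28 °C changed 0 of 7 amplicons in testis, with 0 also at an unadjusted p below 0.05, where 55.0% of all 20 amplicons passed. The 2 prefixes went apart. Within prefix 204, amplicon 3 had 0.327%, 0.651% and 1.28% at 36 °C (lowest, median and highest, n = 6), against 0.241%, 0.368% and 0.512% at 28 °C (n = 9). That was a difference of 0.330 points (exact permutation test, adjusted p = 0.0046). Without fish 11 the 36 °C mean was 0.583% ± 0.152 (SD, n = 5), against 0.370% ± 0.0828 at 28 °C (SD, n = 9). Amplicon 5b had 0.380%, 0.668% and 10.2% (n = 8), against 0.238%, 0.364% and 0.566% (n = 10), a difference of 1.46 points (exact permutation test, adjusted p = 0.00391), and 7 of 8 fish lay above the 28 °C mean. Without fish 11 the 36 °C mean of amplicon 5b was 0.659% ± 0.213 (SD, n = 7), against 0.40% ± 0.0995 (SD, n = 10). Within prefix 128 the same 2 amplicons differed by -0.136 and -0.131 points (permutation test, adjusted p = 0.254 for both). The share of all amplicons that passed within each prefix is not given here.

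The difference between prefixes in the temperature contrast was itself tested. It passed at 3 of 7 amplicons, where 63.2% of all 19 passed. These were amplicons 3, 5b and 19, with values of -0.466, -1.59 and -0.227 points for prefix 128 minus prefix 204 (permutation of residuals, adjusted p = 0.00127, 0.0133 and 0.0165). Without fish 11 the first 2 were -0.350 and -0.390 points (adjusted p = 0.00323 and 0.00285), and the value at amplicon 19, where that fish has no level, stayed at -0.227 (adjusted p = 0.0199). All 10 of the 28 °C testes with prefix 204 lay in the ovary range of the scale, so within this prefix the rearing temperature and that property cannot be told apart. Amplicon depth moved with it too: the median depth at 5b was 118354 reads in the 36 °C testes with prefix 204 and 7371.5 in the 28 °C testes with that prefix, and its part in the result was not tested.

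Among single CpGs, 6 of 181 were higher in the 36 °C testes and 0 lower, where 28.7% of all 324 CpGs passed, 25.3% as higher and 3.4% as lower. Amplicon 3 held 3, and amplicons 5b, 7 and 19 held 1 each. An unadjusted p below 0.05 was found at 15 of the 181, and at 35.5% of all 324. Position 54352657 of amplicon 3 had 0.397% ± 0.399 at 36 °C (SD, n = 18) and 0.141% ± 0.215 at 28 °C (SD, n = 22), a difference of 0.273 points (permutation test, adjusted p = 0.0158). Position 34961480 of amplicon 5b differed by 0.702 points (SE 0.584), an SE nearly as large as the value, and by 0.114 points without fish 11. In the 36 °C testes with prefix 204, leaving out fish 11, 13 or 2 left 2 CpGs. Leaving out fish 17 of the 36 °C testes with prefix 128, or any 1 of fish 0, 3, 14 or 15 of the 28 °C testes with prefix 204, left 3. Within prefix 128 alone 0 passed, and within prefix 204 alone 23, with the share over all CpGs not given here for either. Without the libraries in the ovary range only prefix 128 entered, less fish 20 and 22 of its 28 °C testes, and 0 passed.

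In ovary, where only prefix 204 held both temperatures, 0 of 7 amplicons and 0 of 181 CpGs passed, and 0.0% of all 18 amplicons and 294 CpGs did (exact permutation test, Benjamini-Hochberg adjusted). Before adjustment, 3 amplicons and 15 CpGs had a p below 0.05, and all 15 were higher at 36 °C. Over the whole series 27.8% of the 18 amplicons and 6.8% of the 294 CpGs had such a p, and all of these 20 CpGs were higher at 36 °C. The mean-rank test gave 3 CpGs and the quasi-binomial model 4 CpGs and 0 amplicons. The differences at all 7 amplicons were positive, and so were those at 132 of 181 CpGs, with a median of 0.165 points against 0.216 over all CpGs tested. Amplicon 19 had 0.306%, 0.451% and 0.749% at 36 °C (n = 8), against 0.136%, 0.311% and 0.427% at 28 °C (n = 9), and 8 of 8 fish at 36 °C lay above the 28 °C mean. Its difference was 0.181 points (SE 0.0638, exact permutation test, adjusted p = 0.112), and 0.207 points (adjusted p = 0.0346) without fish 3 of the 36 °C ovaries. Without fish 16 of that group 1 CpG passed, position 7060549 of amplicon 15.

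Amplicon 5a had 0.583%, 0.857% and 1.47% in the 36 °C ovaries (n = 11), against 0.443%, 0.614% and 1.02% in the 28 °C ovaries (n = 9). The difference of 0.234 points did not pass (SE 0.101, exact permutation test, adjusted p = 0.176). Amplicon 5b had 0.390%, 0.555% and 3.40% (n = 12), against 0.258%, 0.348% and 0.543% (n = 9), a difference of 0.419 points (SE 0.242, exact permutation test, adjusted p = 0.176). Its highest value is the fish with 27 reads per CpG, and the next was 1.01%.

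Within prefix 204 the effect of rearing temperature in testis was also set against that in ovary. It passed at 1 of 7 amplicons, where 55.0% of all 20 passed. This was amplicon 3, where the temperature difference in testis exceeded that in ovary by 0.319 points (permutation of residuals, adjusted p = 0.0148). Without fish 11 of the testes that was 0.203 points and did not pass (adjusted p = 0.0612), while amplicon 5a then passed at -0.339 points (adjusted p = 0.0448).

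The 2 title prefixes were next compared in the testes reared at 36 °C. All 7 of 7 amplicons were lower with prefix 128 than with prefix 204, where 72.2% of all 18 amplicons passed and 44.4% passed as lower. With mean ranks 7 of 7 passed, but with a quasi-binomial model of the read counts 2 of 7, amplicons 3 and 5a. Amplicon 1 had 0.346%, 0.530% and 0.823% with prefix 128 (lowest, median and highest, n = 12), against 0.654%, 1.06% and 2.88% with prefix 204 (n = 7). The difference was -0.735 points (SE 0.285, exact permutation test, adjusted p = 0.00143), and 12 of 12 fish with prefix 128 lay below the median of prefix 204. Amplicon 3 had 0.160%, 0.255% and 0.498% (n = 12), against 0.327%, 0.651% and 1.28% (n = 6), a difference of -0.412 points (SE 0.133, exact permutation test, adjusted p = 0.00145). Amplicon 5a had 0.306%, 0.395% and 0.637% (n = 12), against 0.458%, 0.666% and 1.03% (n = 8), a difference of -0.269 points (SE 0.0771, exact permutation test, adjusted p = 0.0022).

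Fish 11 set the size of the difference at amplicon 5b but not its direction. The level there was 0.135%, 0.394% and 0.544% with prefix 128 (n = 12), against 0.380%, 0.668% and 10.2% with prefix 204 (n = 8), a difference of -1.48 points (SE 1.20, exact permutation test, adjusted p = 0.00143). Without fish 11 it was -0.287 points (adjusted p = 0.00358). Amplicon 7 differed by -0.340 points, and by -0.150 points without that fish (adjusted p = 0.00143 and 0.00358, exact permutation test). Amplicon 15 differed by -0.719 points (adjusted p = 0.0196), and by -0.273 points without it, which did not pass (adjusted p = 0.0535). Amplicon 19, with no level in fish 11, differed by -0.146 points (SE 0.0630, exact permutation test, adjusted p = 0.0369), and that call was lost for 11 of the 20 fish that could be left out singly. Without the libraries in the ovary range amplicons 15 and 19 did not pass (adjusted p = 0.0715 and 0.0768).

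Single CpGs lower with prefix 128 in the 36 °C testes numbered 58 of 181, and 0 were higher, where 35% of all 311 CpGs passed and 22.8% passed as lower. Amplicon 5b held 24 of the 58, amplicon 3 held 8, amplicons 1 and 7 held 7 each, 5a held 6, 15 held 4 and 19 held 2. At amplicon 5b the 24 differences ran from -1.23 to -1.83 points, and the 10 largest lay between -0.203 and -0.554 points without fish 11. Position 34961639 had 0.299% ± 0.135 with prefix 128 (SD, n = 12) and 2.02% ± 3.32 with prefix 204 (SD, n = 8; exact permutation test, adjusted p = 0.00165). Without fish 11, 28 of 181 CpGs passed, and 34 without fish 13 of the same group. With mean ranks 19 passed and with the quasi-binomial model 14. The median depth at amplicon 5b differed as well, 6160 reads with prefix 128 and 118354 with prefix 204, and its part in the result was not tested.

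**Figure D3:**
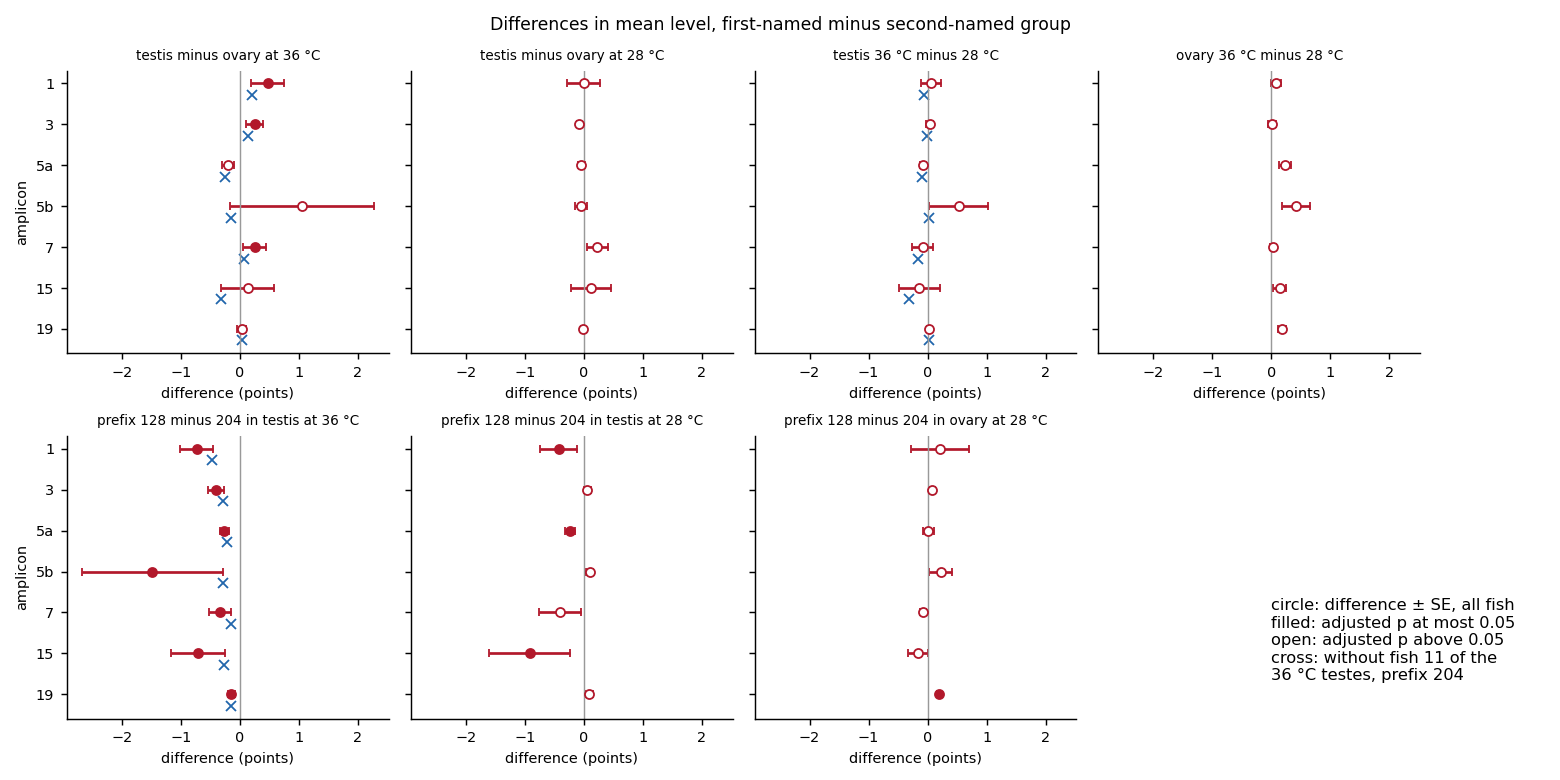
Difference in mean level for each amplicon and comparison, in percentage points, as the first-named minus the second-named group with its SE (red circles, filled where the adjusted p is at most 0.05). Blue crosses leave out fish 11 of the 36 °C testes with prefix 204. All 7 amplicons are lower with prefix 128 in the 36 °C testes. The values at amplicon 5b change most without that fish. Between testis and ovary at 36 °C the differences at amplicons 5b and 15 then change sign.

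In the testes reared at 28 °C, 3 of 7 amplicons were lower with prefix 128, where 75% of all 20 amplicons passed and 20% passed as lower. Amplicon 5a had 0.332%, 0.473% and 0.888% with prefix 128 (n = 13), against 0.359%, 0.705% and 1.12% with prefix 204 (n = 9), a difference of -0.228 points (SE 0.0857, exact permutation test, adjusted p = 0.0146). This call held with each single fish left out. Amplicon 1 had 0.395%, 0.614% and 0.884% (n = 13), against 0.553%, 0.763% and 3.78% (n = 10), a difference of -0.427 points (adjusted p = 0.0263, exact permutation test). Without fish 2 of prefix 204 it was -0.124 points and did not pass. Amplicon 15 had 0.393%, 0.556% and 1.51% (n = 13), against 0.283%, 1.05% and 7.56% (n = 10), a difference of -0.913 points (adjusted p = 0.0459, exact permutation test). It was -0.246 points without fish 7 of prefix 204, and the call was lost for 17 of the 23 fish that could be left out singly.

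At single CpGs of the 28 °C testes the directions were mixed, with 6 of 181 higher and 5 lower with prefix 128, where 35% of all 320 CpGs passed, 26.9% as higher and 8.12% as lower. An unadjusted p below 0.05 was found at 27 of the 181, and at 43.4% of all 320. Amplicon 5b held 4 of the 6 higher ones, each by 0.194 to 0.370 points, which is the opposite sign to the 36 °C testes. The median depth at this amplicon was 69965.5 reads with prefix 128 and 7371.5 with prefix 204. The order of the depths was thus also opposite to that in the 36 °C testes, and its part in the result was not tested. At amplicon 5b as a whole the difference was 0.102 points and did not pass (SE 0.0603, exact permutation test, adjusted p = 0.153). Position 34961637 had 0.627% ± 0.359 with prefix 128 (SD, n = 13) and 0.257% ± 0.0515 with prefix 204 (SD, n = 10; exact permutation test, adjusted p = 0.00324). Amplicon 5a held 3 lower CpGs and 1 higher. Position 23697237 there had 0.297% ± 0.218 (n = 13) and 0.997% ± 0.577 (n = 9). Without fish 20 of prefix 128, 17 CpGs passed. All 10 testes with prefix 204 lay in the ovary range of the scale, so prefix and that property cannot be told apart here.

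The 28 °C ovaries gave 1 clear difference between prefixes. Amplicon 19 was the only one of 18 amplicons tested in the series to pass, 5.56% of them, with prefix 128 higher. It had 0.451%, 0.476% and 0.528% with prefix 128 (n = 9), against 0.136%, 0.311% and 0.427% with prefix 204 (n = 9), and the groups did not overlap. The difference was 0.185 points (SE 0.0330, exact permutation test, adjusted p = 0.00074), and between 0.164 and 0.201 points with any single fish left out, each past the threshold. The median depth was 8537 reads with prefix 128 and 4007 with prefix 204. The ovaries with prefix 204 are also the 28 °C side of the ovary temperature comparison, in which amplicon 19 differed by 0.181 points.

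At single CpGs of the 28 °C ovaries, 7 of 181 were higher with prefix 128 and 0 lower, where 3.74% of all 294 CpGs passed and 2.72% passed as higher. Amplicon 3 held 4 and amplicon 19 held 3. Position 1356594 of amplicon 19 had 0.685% ± 0.296 with prefix 128 and 0.210% ± 0.0853 with prefix 204 (SD, n = 9 each; exact permutation test, adjusted p = 0.00202). Position 1356602, the highest CpG of that amplicon, had 0.636% ± 0.194 and 0.215% ± 0.119 (adjusted p = 0.0121, exact permutation test). Position 54352624 of amplicon 3 had 0.554% ± 0.890 and 0.0599% ± 0.0502, a mean with prefix 128 smaller than its SD. Its difference of 0.494 points was 0.198 points without fish 9 of prefix 128. At amplicon 3 as a whole the difference was 0.0667 points and did not pass (SE 0.0501, exact permutation test, adjusted p = 0.701).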

How the data were processed

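DNA methylation was measured by multiplex bisulfite sequencing of gonad DNA from 73 fish. The authors deposited 1 table per fish with whole-number counts of methylated and unmethylated reads at each CpG, with no normalization. Bismark 16.0, Bowtie2, FastQC 0.11.6 and Trim Galore 0.4.5 are named in the submitters' processing notes, as is the GRCz10 build. Whether PCR duplicates were removed is not given in the sources used here.

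The level of a CpG was the percent of methylated reads in a fish with at least 10 reads. CpGs with a level in at least 50% of fish were kept, 324 of 25217, and neighbours at most 200 bp from each other formed 20 amplicons. An amplicon level is the mean of its CpG levels in a fish where at least 50% had one. Differences between group means over fish were tested by permutation, two-sided, within prefix where both took part. It was exact up to 3000000 splits and otherwise used 100000 resamples, with a smallest p of 1e-05. At least 5 fish a side were required. P-values were adjusted by Benjamini-Hochberg over all kept CpGs, or all amplicons, of a comparison, with a threshold of 0.05, and differences are averaged over prefixes. Because CpGs and amplicons outside this set are included, 0.05 is not the error rate among the members alone. Interactions used 20000 permutations of residuals, and comparisons with a fish left out 20000 resamples where not exact. Alternatives were mean ranks, a quasi-binomial model, higher read minimums, pooled reads, amplicons without end CpGs, single prefixes, a replicate block, and fish or ovary-range libraries left out. Interactions without fish 11 and amplicon values within a prefix were added after seeing the data. The tests of single CpGs were tried, for some comparisons, on simulated data with added changes of at least 1 point. Smaller changes, amplicons and interactions were not simulated, so this says nothing about them. Named CpGs are the first, last and highest of each amplicon, those at 3 times the amplicon's median CpG and at least 1%, and up to 10 of those past the threshold in a comparison.

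The members, lists and tests were chosen with earlier results of these data known. Fish numbers shared between groups did not pair the samples, and 0 pairs of libraries held identical counts. The sequence around the CpGs and gene annotation of GRCz10 were not used here. Python 3.11.15, numpy 2.4.6, pandas 2.3.3, scipy 1.17.1, statsmodels 0.14.6 and matplotlib 3.10.9 were used.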

Additional observations from a re-analysis of the deposited data

Results flagged for a closer look

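Within groups of 4 to 10 fish, 10 of the 30 groups of amplicon levels held a fish far from the others by Dixon's criterion. So did 12 of the 30 groups of levels at an amplicon's highest CpG. The criterion flags about 1 group in 20 by chance only where levels are normally distributed, which was not tested for these low levels. The highest CpGs were also chosen by their mean over these same fish, so their count cannot be set against that rate. Fish 11 of the 36 °C testes with prefix 204 stood apart at amplicon 5b (10.2%, next 0.987%), 15 (4.42%, next 1.06%), 1 (2.88%, next 1.48%) and 7 (2.0%, next 0.675%). It also stood apart at CpGs 34961560 (12.7%), 7060601 (7.01%) and 54352619 (2.26%), and fish 19 of that group at 1356602 (2.58%).

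In the 28 °C testes with prefix 204, fish 7 stood apart at amplicons 15 (7.56%, next 1.54%) and 7 (3.94%, next 0.857%) and at CpG 22538993 (42.3%). Fish 2 did so at amplicon 1 (3.78%, next 1.02%) and fish 5 at CpG 34961560 (2.14%).

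In the 28 °C ovaries with prefix 128, fish 9 stood apart at amplicon 1 (3.77%, next 0.899%) and at CpG 6886521 (71.4%). Fish 14 did so at amplicon 5b (2.07%, next 0.650%) and CpG 34961560 (2.19%), and fish 15 at CpGs 7060601 (7.29%) and 54352619 (1.84%). In the 28 °C ovaries with prefix 204, fish 20 stood apart at amplicon 15 (1.62%, next 1.15%) and CpG 54352619 (7.26%, next 0.337%), and fish 11 at CpG 23697345 (4.30%, next 2.05%).

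Each of the 7 amplicons was tested for a temperature effect that differs by tissue and for one that differs by prefix. In 4 of these tests the effect differed. Over the series 55.0% of all 20 amplicons passed for tissue and 63.2% of all 19 for prefix. The temperature effect was larger in testis than in ovary by 0.319 points at amplicon 3 within prefix 204 (permutation of residuals, adjusted p = 0.0148). Without fish 11 that was 0.203 points, which did not pass (adjusted p = 0.0612). In testis the temperature effect differed between prefix 128 and prefix 204 by -0.466 points at amplicon 3, -1.59 at 5b and -0.227 at 19 (adjusted p = 0.00127, 0.0133 and 0.0165). The tissue difference at 28 °C was also tested for a change between prefixes. None of these amplicons passed there, where 11 of all 20 did (permutation of residuals).

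All levels above come from the strand on which each amplicon was read deeply. Reads on the opposite strand of amplicon 5b were listed in 3 libraries. Fish 11 of the 36 °C testes with prefix 204 had 7121 calls there, summed over 34 CpGs with a median of 210 reads each. Of these calls 4975 were methylated, 69.9%, and single CpGs ran from 14.8% to 100%. The same read can be counted at many CpGs, so the calls are not independent and no interval is given. On the main strand the same fish had 10.2%. Fish 6 of the 36 °C ovaries had 31 of 31 calls methylated (100%) at 31 CpGs, and fish 8 of the 36 °C testes with prefix 204 had 27 of 27 (100%) at 27 CpGs, 1 read at each. In each of these fish the calls may come from a single read.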

How the results depend on the processing

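Limits: cytosine that escapes conversion sets a floor that cannot be told apart from true methylation. In the shallower amplicons counting error at 1 CpG is of the size of the level. Amplicon depth differed between groups, the prefix is undefined, and 14 libraries labelled testis lay in the ovary range. The mean level of each amplicon moved by less than the SD between fish with pooled reads, without its end CpGs and at a minimum of 100 reads. At amplicons 5b, 7 and 15 that SD was about as large as the mean or larger, so this says little about stability there. With pooled reads amplicon 15 stood at 1.38% against 0.985%, and amplicon 5b at 0.798% against 0.664%. Amplicons 3 and 5a were also higher with pooled reads, while amplicons 1, 7 and 19 were lower. With mean ranks, the CpGs past the threshold were 5 (testis against ovary at 36 °C), 0 (testis, 36 °C against 28 °C), 3 (ovary, 36 °C against 28 °C) and 19 (prefixes in testis at 36 °C). Amplicons were 0 for tissue at 36 °C and 1 for prefixes in testis at 28 °C. With a quasi-binomial logistic model, CpGs and amplicons were 18 and 2 (tissue, 28 °C), 19 and 1 (temperature in testis), 36 CpGs (prefixes in testis, 28 °C), 14 and 2 (prefixes in testis, 36 °C), 13 and 2 (prefixes in ovary), and 4 CpGs (temperature in ovary). A larger count in this model does not mean that the main calls held. Of the named CpG calls of the main test, 21 held in it and 28 no longer passed. Of the amplicon calls 5 held and 9 no longer passed. With mean ranks 27 named CpG calls held and 22 did not, and 9 amplicon calls held and 5 did not. Amplicon calls lost in the model are not given separately for tissue at 36 °C or prefixes in testis at 28 °C. With at least 100 reads, 3 CpGs passed for temperature in testis. Without the libraries in the ovary range, tissue at 28 °C gave 13 CpGs and 1 amplicon, and temperature in testis gave 0 CpGs. Both of these counts rest on prefix 128 only. For tissue at 28 °C, prefix 204 alone gave 0 CpGs and prefix 128 alone 1 amplicon. For temperature in testis, prefix 128 alone gave 0 CpGs, and prefix 204 alone gave 23 CpGs and 2 amplicons. The cause was not tested in any of these. The counts in this section are of members alone. The share of all CpGs or amplicons that passed in each setting is not given here. No count in this section can therefore be read as particular to the members.

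With 1 fish left out, the CpGs past the threshold ranged from 5 to 8 for tissue at 28 °C, 8 to 15 for tissue at 36 °C, 2 to 9 for temperature in testis and 0 to 1 in ovary. For prefixes they ranged from 10 to 17 in testis at 28 °C, 28 to 69 in testis at 36 °C and 6 to 9 in ovary. Amplicons ranged from 0 to 0, 1 to 3, 0 to 0, 0 to 1, 1 to 3, 6 to 7 and 1 to 1 in the same order.

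With fish of the same number paired as a replicate block, 0 CpGs passed for temperature in testis (10 pairs), and 0 CpGs and 0 amplicons for prefixes in testis at 36 °C (5 pairs). Fewer fish enter this fit, and 5 pairs cannot give a p under 0.0625, so that 0 says nothing about stability. Correlations between paired fish ran from -0.613 to 0.473. Own number was the best match in 0 of 10 pairs for temperature in testis, 0 of 6 in ovary, and for prefixes 0 of 5 in testis at 36 °C, 0 of 2 in testis at 28 °C and 1 of 2 in ovary. In no comparison with 3 or more pairs were all correlations over 0.1, so the samples are taken to share only a number. The block was not run for tissue or for prefixes at 28 °C, which had 0 and 2 pairs. In the temperature comparison of testis, CpG 1356497 reversed to -0.0358 points under this pairing. CpG 34961480 reversed to -0.0232 with prefix 128 alone and without the libraries in the ovary range, and CpG 22538771 to -0.0112 and -0.0413. Both of these settings hold prefix 128 only.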

Other observations

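Position 7060601 was the highest CpG of amplicon 15 by both its mean and its median, and position 6886580 of amplicon 1, 59 bp from the first CpG, was the second highest member CpG of that amplicon with a mean of 1.41% and a median of 1.0%. Its median was 0.974% in the 36 °C testes with prefix 128, 0.980% in those with prefix 204, 0.820% in the 28 °C testes with prefix 128 and 1.38% in those with prefix 204. It was 1.59% in the 36 °C ovaries, and 0.746% and 1.80% in the 28 °C ovaries with prefix 128 and 204. These are values with no test, and the CpG was picked out after its values were seen.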
